A study of Arabidopsis thaliana with 6 samples.

Results

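Transcription factors of 2 protein families help to lay down the concentric cell layers of the Arabidopsis thaliana root. From these families 9 genes are examined here, among 33233 gene loci compared between 2 neighbouring sections of the root apex. They were taken by gene identifier: the GRAS proteins SHORT-ROOT (SHR, AT4G37650), SCARECROW (SCR, AT3G54220), SCL3 (AT1G50420) and SCL23 (AT5G41920), and the C2H2 zinc finger proteins JACKDAW (JKD, AT5G03150), MAGPIE (MGP, AT1G03840), NUTCRACKER (NUC, AT5G44160), AT1G14580 and IDD11 (AT3G13810). The last 5 belong to the INDETERMINATE DOMAIN (IDD) family, whose members named after birds are also called BIRD factors. All 9 had a locus of their own and were tested.

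The roots came from wild-type Columbia (Col-0) seedlings aged 8 days that grew in constant light on vertical plates. Zone II was a 1.5 mm piece with elongating and hair-forming cells (3 libraries), and zone I was the apical 0.5 mm with the cap and the dividing cells (3 libraries). The authors compared their libraries under the condition names experiment and control. No source used here ties either name to a zone, so every direction is given as experiment over control. Both zones are labelled as the same unmutated line, with no factor deleted or overexpressed. RNA was taken from whole sections that mix all cell layers, so fewer cells of a type and less RNA per cell cannot be told apart.

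SHR is transcribed in the vascular cylinder, and its protein moves into the next layer outward, where it meets SCR. Together they switch on the division that splits the ground tissue into endodermis and cortex, and they are needed for the stem cell niche. JKD and MGP bind SHR and SCR and help to set where SHR acts, MGP and NUC are direct targets of SHR, and SCL3 relays gibberellin signals in the endodermis. No role in the layers is stated here for SCL23, AT1G14580 or IDD11.

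By protein sequence the factors include 2 close pairs, and the upstream sequence of SCR and SCL23 is shown because their fold changes are compared further on. MGP and NUC shared 340 residues, 73.0% of the shorter protein, and SCR and SCL23 shared 230 residues, 56.8% of the shorter protein. The sequences are the 200 bases before each annotated gene start, 5′ to 3′ on the gene's strand, from the RefSeq TAIR10.1 genome. They lie at chr3:20069787-20069986 (plus strand) for SCR and chr5:16779443-16779642 (plus) for SCL23. Capitals mark the hexamer TTTGTC or its complement GACAAA in SCR and SCL23.
SCR: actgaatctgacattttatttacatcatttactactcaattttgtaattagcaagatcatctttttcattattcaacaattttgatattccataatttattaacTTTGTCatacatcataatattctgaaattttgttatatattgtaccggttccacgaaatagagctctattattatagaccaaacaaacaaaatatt
SCL23: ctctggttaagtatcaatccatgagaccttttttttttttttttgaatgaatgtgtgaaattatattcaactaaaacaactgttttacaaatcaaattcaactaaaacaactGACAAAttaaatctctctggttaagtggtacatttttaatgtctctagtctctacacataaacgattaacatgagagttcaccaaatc

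The letters TTTGTC, part of the sequence that the maize founder of the family, ID1, binds, were searched on both strands from 250 bases before to 50 after each start. They occurred in 4 of 9 factors, SCR, SCL23, NUC and IDD11, and in 28.2% of all 27443 protein-coding promoters. The longer TTTTGTC, which contains it, occurred in NUC and IDD11 and in 15.1% of all promoters, in both factors after the start. In SCR the hexamer lies 96 bases before the start, and in SCL23 its complement begins 88 bases before.

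Between the 2 sections the 9 factors did not move as a block. MGP fell, AT1G14580 and IDD11 rose, and the other 6, including SHR and SCR themselves, did not pass the authors' threshold, a Cuffdiff q under 0.01. That is 3 of 9 called (33.3%), with 2 higher and 1 lower per the authors' deposited table. Among all 18050 tested loci 43.6% were called, 22.3% higher and 21.2% lower, so the share among the factors is near that background. The folds spanned 4.16 on the log2 scale, between -1.30 and 2.86, with a median of 0.088, against a median of -0.075 over all tested loci with a finite fold. The 3 calls all lay in the IDD proteins, 3 of 5, and none in the 4 GRAS proteins. At a q under 0.05, 1 of the 4 GRAS proteins, SCR, would pass, against 55.8% of all tested loci. Whether the families differ was not tested. The error behind a fold is given here only by the authors' test, since no value per library was used.

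**Figure D1:**
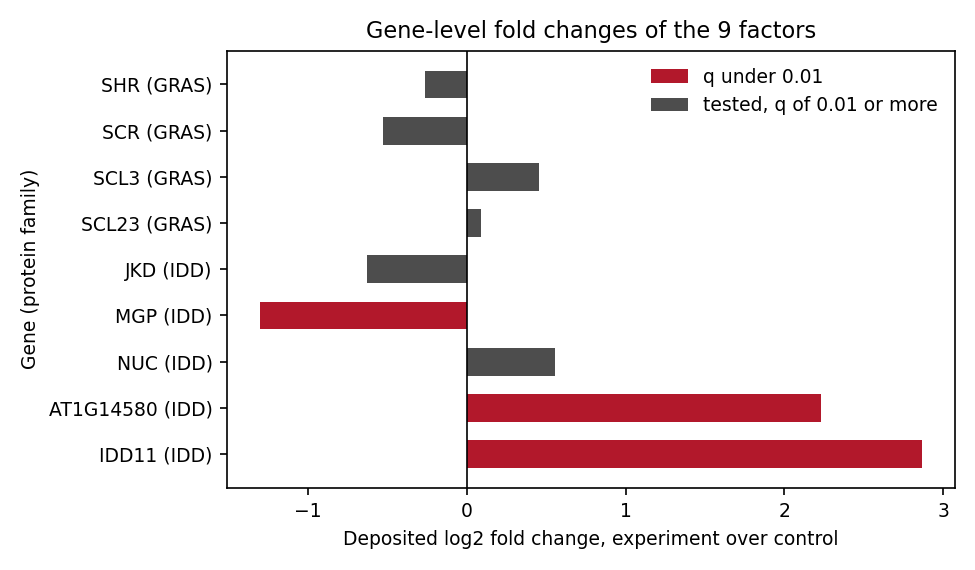
Deposited log2 fold change (experiment over control, horizontal axis) of each of the 9 factors, 1 bar per gene, red where the Cuffdiff q was under 0.01. MGP points left at -1.30, AT1G14580 and IDD11 point right at 2.23 and 2.86, and the 4 GRAS genes lie between -0.53 and 0.45.

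Of the founding pair, SHR stood at a log2 fold change of -0.26 (statistic -0.63, q = 0.326) per the authors' deposited table. SCR, the partner that holds SHR in the endodermis, stood at -0.53 (statistic -1.32, q = 0.0385) per the authors' deposited table. In linear terms the experiment value was 0.835 of the control value for SHR and 0.694 of it for SCR. Both folds are small for this comparison, since 12.5% of tested loci with a finite fold had a smaller absolute fold than SHR and 24.7% a smaller one than SCR. A q over the threshold does not show that either gene was equal in the 2 conditions. The SHR span, on chromosome 4 from 17691786 to 17693760 on TAIR10, lies in a gene of 1 exon on the plus strand. The SCR span, on chromosome 3 from 20070158 to 20072780, lies in a gene of 2 coding exons on the plus strand.

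The other 2 GRAS factors had positive folds that did not pass. SCL3 stood at 0.45 (q = 0.152) and SCL23, a close relative of SCR, at 0.09 (q = 0.860) per the authors' deposited table. SCL3 lies on chromosome 1 from 18677839 to 18680117 (minus strand) and SCL23 on chromosome 5 from 16779749 to 16781377 (plus strand). A second locus named SCL23 has the same coordinates and a log2 fold change of 1.09 with q = 0.594 per the authors' deposited table. Loci are numbered along one strand and then the other, a rule that gave the annotated strand for 26808 of 26830 single loci (99.9%), and by it the second locus is on the minus strand, opposite to the gene. The libraries do not mark strand, so reads of these loci cannot be told apart and the SCL23 value is uncertain.

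**Figure D2:**
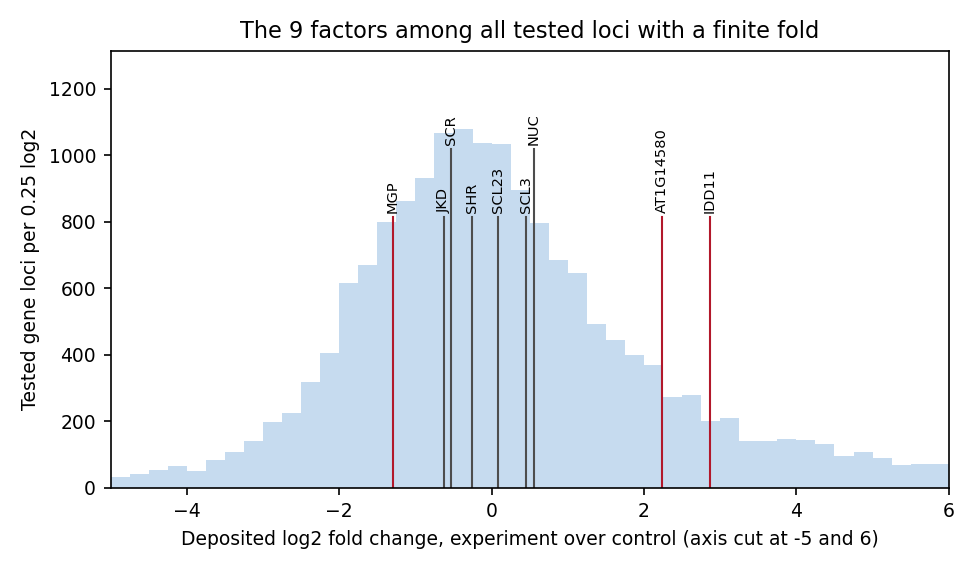
Histogram of deposited log2 fold changes (experiment over control) over all tested gene loci with a finite fold, in steps of 0.25, with a line at each factor (red where q was under 0.01); line heights carry no value. The 6 uncalled factors lie between -0.63 and 0.56, near the median of all loci at -0.075, and AT1G14580 and IDD11 lie on the right flank.

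The IDD factors spread more widely. MGP, a zinc finger partner of SHR and SCR, fell to 0.406 of its control value, a log2 fold change of -1.30 (statistic -2.67, q = 0.000177) per the authors' deposited table. JKD, which limits the reach of SHR, lay on the same side at -0.63 (statistic -1.59) and missed the threshold with q = 0.0149 per the authors' deposited table. NUC stood on the other side at 0.56 (statistic 1.28, q = 0.0488) per the authors' deposited table. At a q under 0.05, the looser threshold, SCR, JKD and NUC would join the calls, and 6 of 9 factors would pass, 3 in each direction. Of all tested loci 55.8% pass that threshold, 27.8% higher and 28% lower. With an absolute log2 fold of at least 1 required as well as a q under 0.01, MGP, AT1G14580 and IDD11 still pass, against 38.2% of all tested loci, 19.8% higher and 18.4% lower. An alternative chosen after seeing the data used the normal p of the deposited statistic. By it AT1G14580 and IDD11 pass and MGP does not (Benjamini-Hochberg q = 0.0242). Of all tested loci 26.3% pass it, 15.3% higher and 11% lower. The deposited p does not follow a normal curve of the statistic. The endodermis gene CASP1, for example, has a statistic of 3.81 and a Cuffdiff p of 0.207. The alternative therefore cannot decide whether the MGP call holds.

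AT1G14580 was 4.70-fold higher in the experiment condition, a log2 fold change of 2.23 (statistic 3.73, q = 0.000177) per the authors' deposited table. IDD11 was 7.28-fold higher, at 2.86 (statistic 3.62, q = 0.000177) per the authors' deposited table. The values by condition were not used, so whether the fold of AT1G14580 or of IDD11 rests on low expression is unknown. Of tested loci with a finite fold, 76.0% had a smaller absolute fold than AT1G14580 and 83.7% a smaller one than IDD11, so both are large but not extreme changes. The q of 0.000177 is the smallest in the table and is shared by many loci, so the 3 calls cannot be ranked by it. The reference annotates AT1G14580 as a C2H2-like zinc finger protein without a symbol, and its protein shared 66.7% of residues with IDD4.

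On TAIR10 the deposited spans place MGP on chromosome 1 from 967503 to 970130 (minus strand) and JKD on chromosome 5 from 745451 to 749068 (plus strand). NUC lies on chromosome 5 from 17772883 to 17775686, AT1G14580 on chromosome 1 from 4989562 to 4992732 and IDD11 on chromosome 3 from 4544364 to 4547513, all on the plus strand. Of the 9 spans 8 lie inside the annotated gene, and that of JKD ends beyond the annotated end at 749028. The IDD genes have 3 or 4 coding exons in their longest models, and their proteins have 466 to 514 residues. The GRAS proteins have 405 to 653 residues, and their genes have 1 coding exon except SCR.

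The factors and their closest relatives by sequence stood on opposite sides of 0 in the pairs with both genes tested. Each factor was set beside its closest relative among the 16 IDD or 30 GRAS genes listed, by identity of the translated proteins. In the 6 distinct pairs with both genes tested, the 2 log2 folds had opposite signs in all 6 per the authors' deposited table. In 3 of these pairs 1 gene was called and in none were both, against 43.6% of all tested loci called. Of all tested loci with a finite fold 48.3% had a positive one, so any 2 loci often have opposite signs. The closest pair, NUC and MGP, differed by 1.86 in log2 fold, 0.56 for NUC and -1.30 for MGP per the authors' deposited table. IDD11 at 2.86 and IDD7 at -1.89 (66.8% identity) differed most, by 4.75, but IDD7 did not pass (q = 0.288) per the authors' deposited table. AT1G14580 at 2.23 and IDD4 at -0.24 (q = 0.627) differed by 2.48 per the authors' deposited table. JKD at -0.63 and AT3G45260 at 1.26 (52.7% identity) both missed the threshold, with q = 0.0149 and q = 0.0110 per the authors' deposited table. SCL3 at 0.45 and SCL21 at -1.27 (q = 0.0462, 37.8% identity) did so too per the authors' deposited table, and the SCL21 locus reaches beyond its annotated gene. SCR at -0.53 and SCL23 at 0.09 were the closest in fold, 0.62 apart per the authors' deposited table. Without values per library, the difference within a pair was not tested. Whether reads from closely similar relatives were shared between their loci was not tested. The closest relative of SHR, AT3G49950 (34.6% identity), had no test.

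**Figure D3:**
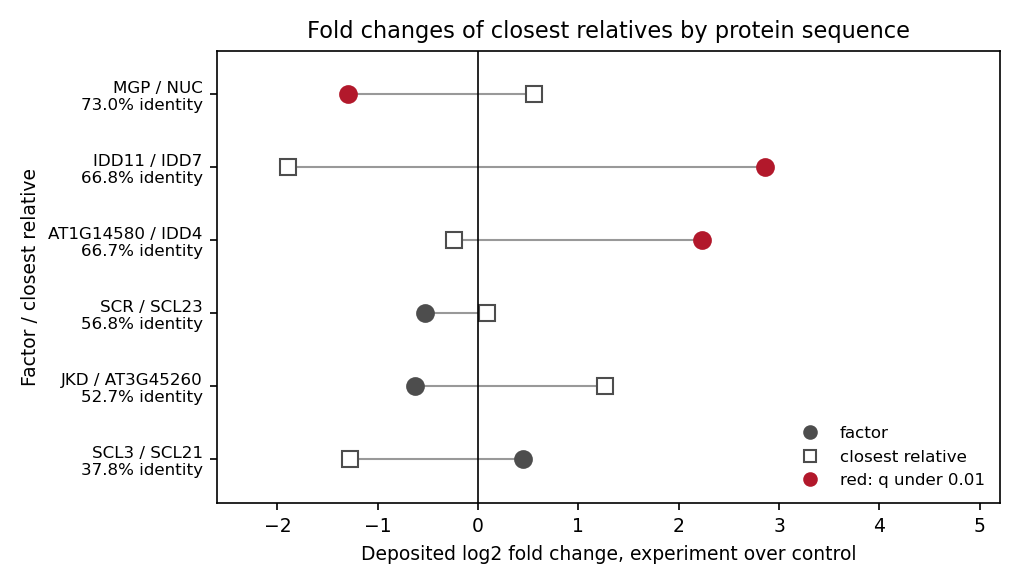
Deposited log2 fold change (experiment over control) of a factor (circle) and of its closest relative by protein identity (square), joined by a line, for the 6 pairs with both genes tested; red marks q under 0.01. In each pair the symbols lie on opposite sides of 0, from 0.62 apart for SCR and SCL23 to 4.75 apart for IDD11 and IDD7.

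The isoform comparison held 26 entries under these 9 genes, of which 19 were tested and 2 called per the authors' deposited table. Of all 32807 tested isoforms 16.8% were called, 9.93% higher and 6.9% lower. At a q under 0.05 4 of the 19 would pass, 3 higher and 1 lower, against 23.1% of all, 13.2% higher and 9.91% lower. Of the 2 MGP isoforms 1 fell, at -1.48 (q = 0.00118), and the other stood at 1.45 with q = 0.631 per the authors' deposited table. One of the 2 tested AT1G14580 isoforms rose, at 2.40 (q = 0.000812), and the other stood at 2.35 with q = 0.341 per the authors' deposited table. A further AT1G14580 isoform had no test, its experiment value being 0. The single isoforms of SHR (-0.17, q = 0.818), SCL3 (0.60, q = 0.648) and NUC (0.63, q = 0.0444) had the sign of their genes per the authors' deposited table. SCL23 stood at 0.21 (q = 0.738) on its own strand and at 1.20 (q = 0.428) on the opposite one per the authors' deposited table.

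IDD11, called as a gene, had no called isoform among 3 tested, all with positive folds per the authors' deposited table. These stood at 1.20 (q = 0.701), 4.29 (q = 0.131) and 12.17 (q = 0.440) per the authors' deposited table, and the largest has a statistic of 0.046, the smallest of the 3. For the lower isoform of MGP and the others, the deposited identifiers do not say which annotated transcript each one is.

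Isoforms of SHR, SCL3, SCR and JKD carry the span of a bundle of neighbouring genes, 9 genes over 29551 bases for SHR and 9 genes over 38052 bases for SCL3, so their own positions are uncertain. SCR had 3 tested isoforms, at -0.92 (q = 0.355), -0.02 (q = 0.983) and, on the locus placed on the opposite strand, -0.76 (q = 0.845) per the authors' deposited table. Their bundle holds 11 genes over 37709 bases. JKD had 4 tested isoforms per the authors' deposited table. The entry with the largest statistic stood at 1.96 (q = 0.0364), against -0.63 for the gene per the authors' deposited table. The 4 come from 2 loci inside a bundle of 12 genes over 39051 bases, and the position of neither is given. The next gene by locus number after the 1.96 entry is AT5G03080, so whether that entry is a JKD transcript is uncertain. The 3 isoforms of the other locus stood at -1.0 (q = 0.247), 0.17 (q = 0.932) and 0.73 (q = 0.703) per the authors' deposited table.

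**Figure D4:**
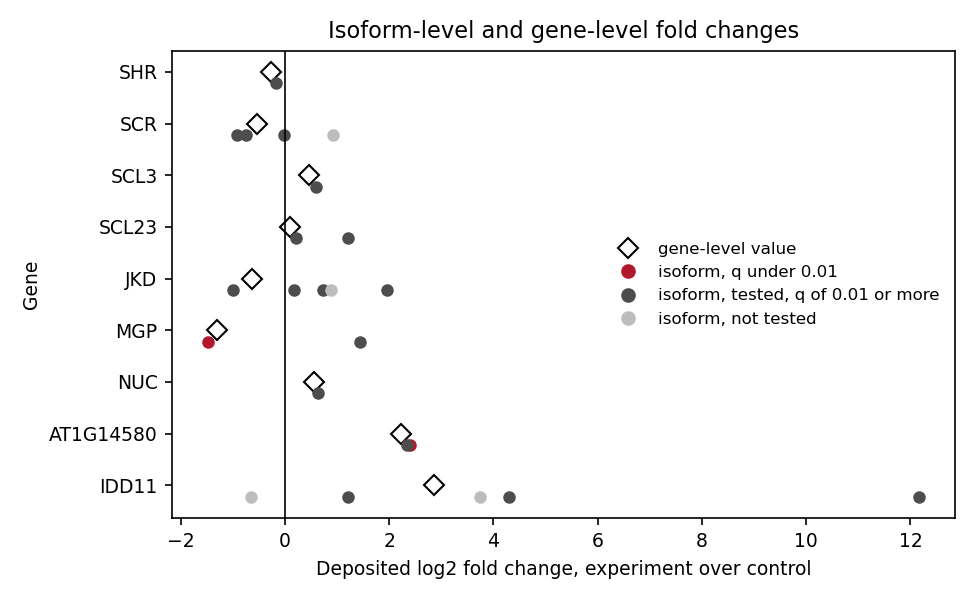
Deposited log2 fold changes (experiment over control) of the isoforms under each factor's name (filled circles) and of the gene (open diamond). Red marks q under 0.01 and light grey marks isoforms without a test; entries with no fold or with 0 in both conditions are not drawn. One isoform each of MGP (-1.48) and AT1G14580 (2.40) is red, and the IDD11 isoform at 12.17 is not.

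Among the rest of the IDD family, of 9 tested genes of 11, 2 were lower and 0 higher by Cuffdiff at a q under 0.01 per the authors' deposited table. That is 22.2% called, against 43.6% of all tested loci with 22.3% higher and 21.2% lower. At a q under 0.05, 2 were lower and 1 higher, against 55.8% of all tested loci, 28% lower and 27.8% higher. Neither the share nor the direction was tested. Their median fold was -0.53 on the log2 scale, against 0.56 for the 5 IDD factors. IDD5 fell (-1.64, q = 0.000177), as did IDD14 (-0.82, q = 0.00522) per the authors' deposited table. IDD7 at -1.89, AT3G45260 at 1.26 and IDD15, also called SGR5 and known from shoot gravitropism, at -0.85 (q = 0.0662) did not pass per the authors' deposited table. IDD12 and AT5G60470 had no test.

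The rest of the GRAS family had calls in both directions, with 8 higher and 5 lower of 22 tested genes (59.1% called, against 43.6% of all tested loci) per the authors' deposited table. SCL8 (3.34), AT3G50650 (3.19), SCL13, which acts in phytochrome signalling (2.81), and SCL1 (2.03) rose per the authors' deposited table. AT1G63100 (-3.61) and the DELLA repressor RGL2 (-2.18) fell, and RGL3, another DELLA gene, was listed at 0 in the experiment condition, all with q = 0.000177 per the authors' deposited table. The DELLA gene RGL1 was at -1.12 (q = 0.0166) and AT2G37650 at 1.41 (q = 0.187), and neither passed per the authors' deposited table. SCL3 opposes DELLA proteins in the root, and RGA (-0.06, q = 0.831) and GAI (-0.34, q = 0.265) did not pass per the authors' deposited table. RGA and GAI were picked after their values were seen. The list had a median of 0.16, and whether it differs from the 4 GRAS factors was not tested.

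Of 9 tested partners and targets 3 were higher, 1 was lower and 5 did not pass per the authors' deposited table. The share called, 44.4%, is near the 43.6% over all tested loci. MYB36, which turns on endodermal differentiation downstream of SCR, was 38.7-fold higher, at 5.27 (q = 0.000177) per the authors' deposited table. CYCD6;1, the cyclin of the ground tissue division that SHR and SCR activate, was 6.31-fold higher, at 2.66 (q = 0.00106) per the authors' deposited table. The brassinosteroid enzyme gene BR6OX2 rose (0.85, q = 0.000780), and RBR1, a retinoblastoma-related protein that binds SCR, fell (-0.92, q = 0.00479) per the authors' deposited table. The F-box gene SNE (-3.66, q = 0.0443), SIEL, a protein that binds SHR and aids its movement (-2.69, q = 0.0132), and the adaptor gene SEU (-0.16, q = 0.633) did not pass per the authors' deposited table. The quiescent centre gene WOX5, CKX1, MIR165A and MIR166A had no test, and MIR166B had no locus of its own.

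**Figure D5:**
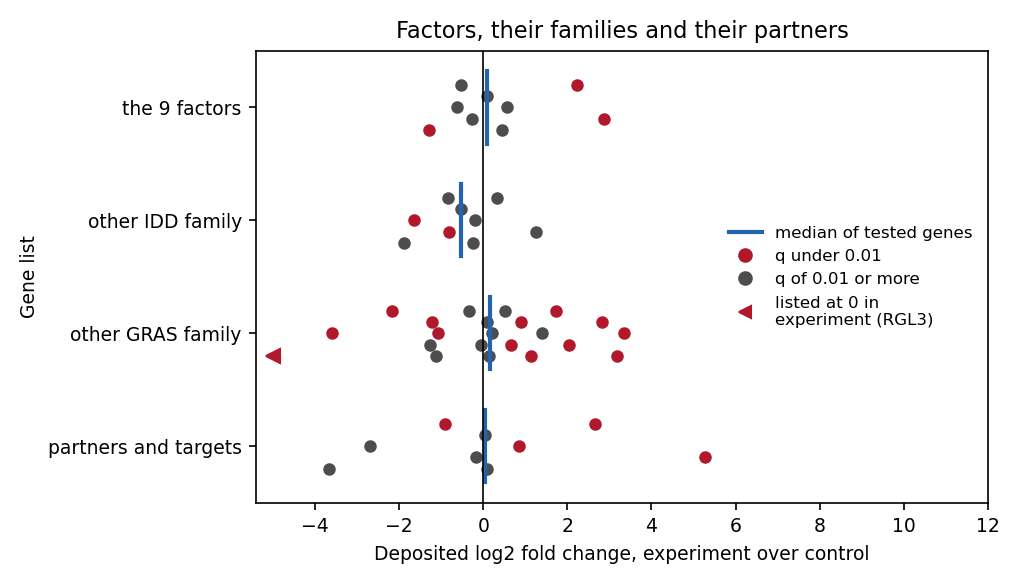
Deposited log2 fold changes (experiment over control) of the tested genes of 4 lists, 1 point per gene (red where q was under 0.01), with a blue bar at each list's median; vertical scatter is only for legibility. The medians lie between -0.53 for the other IDD genes and 0.16 for the other GRAS genes, and the triangle at the left edge is RGL3, listed at 0 in the experiment condition and so without a fold.

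In several cell type marker lists most tested genes were called at a q under 0.01. Over all tested loci 43.6% were called, 22.3% higher and 21.2% lower. Endodermis markers were higher in 2 of 8 tested genes (25%) and lower in 0 by Cuffdiff per the authors' deposited table, so their share is not above that background. At a q under 0.05, 2 were higher and 1 lower, against 27.8% and 28% of all tested loci. Of these 8, 7 lay above 0, with CASP2 listed at 0 in the control condition, and CASP1 (14.11, q = 0.273) did not pass per the authors' deposited table. AT4G28100, the endodermal marker with a negative fold and picked for it, stood at -0.54 (q = 0.0466) per the authors' deposited table. Markers of the vascular cylinder, where SHR is transcribed, were higher in 4 of 5 genes, with folds between 1.39 (WOL) and 5.07 (SUC2) per the authors' deposited table. Of 3 cortex markers 1 was higher and 1, AT1G62500, was listed at 0 in the experiment condition on both of its loci per the authors' deposited table. Root hair markers were higher in 5 of 5, dividing cell markers lower in 5 of 5 and root cap markers lower in 4 of 5 tested genes per the authors' deposited table. MGP, AT1G14580 and IDD11 changed beside these markers, and the part of cell composition in those 3 results was not tested.

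By fold and statistic over the 2 conditions, the tested genes with a symbol nearest to SHR were DER1 (-0.26), GSL8 (-0.27) and LIN2 (-0.27) per the authors' deposited table. Nearest to SCR were MUR3 (-0.53), ftsh3 (-0.53) and MTK (-0.52) per the authors' deposited table. Nearest to JKD were CDF1 (AT5G23040, -0.62), SVB (-0.63) and CLPP3 (-0.63) per the authors' deposited table. Likeness over 2 conditions is weak, since many loci share any small fold.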

How the data were processed

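The data are 2 comparison tables, of genes and of isoforms, made from 6 RNA-seq libraries, 3 from each root zone by their titles. The tools were Cuffdiff, Cufflinks and TopHat on TAIR10, per the submitters' processing notes. Which version and settings were used is not given in the sources used here. Log2 fold changes, test statistics (a score), p-values and q-values are used as the authors deposited them, named per the file headers. Each table's 2 columns of values by condition were left unused. No value per library was analysed, so depth and replicate spread are unknown, no SD stands beside a fold, and no test was added. The labels do not say whether replicates were separate plants. The deposited q equals a Benjamini-Hochberg adjustment of the deposited p within a relative difference of 4.9e-06, and that code was tested on simulated data. Cells with a spreadsheet error in the fold column were read as 0 in the experiment condition.

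RefSeq TAIR10.1 gave symbols, gene models, translated coding sequences and upstream sequence, and all 27266 single-gene loci overlapped their reference gene. The upstream sequence of MGP is not reported here. Identity came from global alignment (Biopython 1.88, BLOSUM62, gap opening 10 and extension 0.5) over the shorter protein. Loci that join several genes were left out of the lists. Members and lists were chosen with earlier results of these data known. All 9 factors are named; of each family or partner list, called genes by absolute fold (up to 6), called genes listed at 0, and up to 3 uncalled genes. Marker lists are given by counts and range, with a few genes named. Alternatives were other thresholds, adjustments, locus sets, centring and the isoform table.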

Additional observations from a re-analysis of the deposited data

How the results depend on the processing

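The counts of 2 factors higher and 1 lower were the same when a log2 fold of at least 1 was also required, with loci of 1 gene only, and with loci listed at 0 left out. At a q under 0.05, 3 factors were higher and 3 lower. With Bonferroni adjustment at 0.05 the counts were 0 higher and 0 lower, and 0 for all tested loci, because the smallest deposited p of 5e-05 cannot pass over 18050 tests. In an alternative chosen after seeing the data, the two-sided normal p of the deposited statistic was adjusted over all tested loci; then 4744 loci (26.3% of those tested) were called in place of 7863, and 0 factors lower, with MGP at q = 0.0242 and AT1G14580 and IDD11 still called. The normal p exceeded the deposited p for 9 of 9 factors, so the deposited p is not the normal p of the statistic. The cause was not tested, and this alternative cannot decide whether the MGP call holds. By isoforms, 1 factor was higher. The entry of largest statistic under the JKD name had the opposite sign to the gene, at 1.96, but its position is not given. Centring on the median of all tested loci changed no sign among the 9 factors. Of 36 list counts under other thresholds, 5 moved by over 1.5 times. No paired analysis was possible because the tables hold no value per library, and for the same reason no replicate was left out and no pseudocount was tried. The depth of the libraries limits every value and is unknown.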
